A study of Mus musculus with 24 samples.

Results

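Thymocytes at the DN3 stage were compared with B cells that do not yet carry IgM on their surface, the points in each lineage at which antigen receptor genes are being assembled. The comparison rests on 6 of the 24 arrays of the series, chosen by their titles: DN3 arrays 7, 8 and 9 and IgM-negative B arrays 16, 17 and 18. DN3 cells were CD4- and CD8-negative stage 3 cells of a thymus labelled wild-type whose genotype is Foxn1 +/-, heterozygous for the gene of the transcription factor that thymic epithelium needs. The IgM-negative B cells were of fetal liver called wild-type, for which the labels give no genotype. Tissue and lineage therefore differ together, Foxn1 genotype may differ with them, and these cannot be told apart. The labels give no age, sex, strain or pooling for the cells used here. Single-positive CD4 (SP4, n = 3) and CD8 (SP8, n = 3) thymocytes of the Foxn1 +/- thymus served as the later stage of the T lineage. IgM-positive B cells of wild-type fetal liver (n = 3) served as that of the B lineage. The group means of these arrays have no part in the first comparison. The remaining arrays are of CD4 and CD8 double-positive (DP) thymocytes and of cells from a transgenic Foxn1-/- thymus. All 24 arrays entered the estimate of the spread, and DP values of a few genes are also given. Few cells were lysed per sample and their cDNA was amplified by PCR before hybridisation. The labels do not say whether the replicates came from separate animals, so errors and p-values reflect only how these samples vary, which could be technical variation.

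As background, DN3 thymocytes have closed the routes to other lineages under Notch signalling, display the interleukin 2 receptor alpha chain Il2ra and have lowered Cd44. They use the Rag1 and Rag2 recombinase to join segments of the T cell receptor (TCR) beta gene, and a productive beta chain is tested with the invariant pre-TCR alpha chain (Ptcra) and the CD3 proteins. The alpha gene is rearranged later, at the DP stage. IgM-negative B progenitors do the same with the immunoglobulin heavy chain gene under the transcription factors Tcf3, Ebf1 and Pax5, and test the heavy chain with the surrogate light chain proteins Vpreb1, Vpreb2 and Igll1 and the signalling chains Cd79a and Cd79b. Light chain genes follow, and then surface IgM.

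Results turn on the probes of a few genes, each 60 bases long, of which 30 bases are shown 5′ to 3′ from the array's own annotation (build mm9). The first set is of the genes whose DN3 arrays stood farthest above the B cell arrays, Tcf7 (read by 2 probes) and the beta constant genes Trbc2 and Trbc1, with the alpha constant gene Trac for contrast.
Tcf7, probe at chr11:52066114-52066173, minus strand, first 30 bases: ttttttcattctcgctgtagatagcctgaa
Tcf7, probe at chr11:52066738-52066797, minus strand, first 30 bases: ccaatacttcttggaccaagaatacctggt
Trbc2, probe within chr6:41497058-41497622, plus strand, first 30 bases: aaacctgtcacacagaacatcagtgcagag
Trbc1, probe at chr6:41489287-41489346, plus strand, first 30 bases: gccaccctgtatgctgtgcttgtcagtaca
Trac, probe within chr14:54841802-54842701, plus strand, first 30 bases: tgactgagaaaagctttgaaacagatatga
The Trbc2 probe covers 565 bases of the genome and the Trac probe 900, so their 60 bases are not contiguous there. Only 1649 of 55116 placed probes have such a span. The longest run of bases that the Trbc1 probe shares with the Trbc2 probe is 5, although the constant genes themselves are close copies. The second set is of the 2 probes the array assigns to Cd79a, which gave different values.
Cd79a, probe within chr7:25684357-25684614, plus strand, first 30 bases: tagaaaacaacatattaaaacgctcctgtg
Cd79a, probe at chr12:53180558-53180617, plus strand, last 30 bases: gtgatAATAAAtccttcccaaagcaaaaaa
Capitals mark the letters AATAAA, the usual polyadenylation signal. That probe ends in a run of 6 A and is placed on another chromosome than the first. Whether the probes lie in exons or untranslated regions was not analysed here.

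Values are log2 signals relative to each array's 75th percentile, and differences are on the log2 scale; levels of different genes cannot be set against each other, since probes differ in brightness. The 6 arrays were alike in quality, with 92.2% to 96.2% of spots well above background and no saturated spot. They were also alike in content. Correlations across genes, which are not independent replicates, ran from 0.931 to 0.963 within the groups and from 0.932 to 0.962 between them, and DN3 7 and DN3 8 correlated on average better with the B cell arrays (0.958 and 0.943) than with their own group (0.951 and 0.939). Slide and group were confounded: DN3 7 lay on slide 2, DN3 8 and 9 on slide 3, and all 3 IgM-negative arrays on slide 4. Slide 1 alone held both lineages at the later stage, as SP4 11 and IgM-positive 19.

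No gene separated the groups past the threshold. Of 33536 genes tested with limma, 0 (0%) had an adjusted p under 0.05 in either direction, and the smallest adjusted p was 0.758. At an unadjusted p under 0.05 there were 437 genes with higher signal in DN3 (1.3%) and 780 with lower signal (2.33%), together 1217 (3.63%). All 3 DN3 arrays lay above all 3 B cell arrays for 2417 genes (7.21%) and below them for 3369 (10%), so that groups did not overlap for 17.3% of genes. With a difference of 1 or more besides, these counts were 457 (1.36%) and 269 (0.802%). The SE of a difference had a median of 0.40 over all genes, and the median difference was -0.02. The genes below are therefore described by their values and are not calls. Array weights were the setting with the most calls, 21 higher and 44 lower in DN3, with Tcf7, Trbc2 (adjusted p = 0.0222 in limma for each), Fbxo17 (0.0136), A630038E17Rik and predicted gene 17004 among them.

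Genes that mark the DN3 stage itself were level. Il2ra measured -3.28, -2.51 and -2.66 in DN3 7, 8 and 9 and -3.23, -2.42 and -2.66 in IgM-negative 16, 17 and 18, a difference of -0.05 ± 0.33 (SE). Ptcra, whose product is made for the pre-TCR, measured 2.66, 2.44 and 2.82 against 2.75, 2.69 and 2.54, a difference of -0.02 ± 0.22. The groups overlapped for both. Neither probe set DN3 apart from DP, SP4, SP8 or IgM-positive cells either. Over these groups and the 2 compared, means ran from 2.61 (SP8) to 2.75 (SP4) for Ptcra. For Il2ra they ran from -3.17 (SP8) to -2.77 (IgM-negative). Why these probes were level, and what that means for the DN3 label, was not tested. Cd44 had means of 4.12 and 4.15, and another of its 4 probes was lower in DN3 by 1.53 with an SD of 1.71 among the B cell arrays. Of 12 measured genes of Notch signalling and the pre-TCR, 1 had all DN3 arrays higher and 1 lower, beside 7.21% and 10% of all genes. Of the 12, 0 had an unadjusted p under 0.05 in limma, and their median difference was 0.07. The one that was higher was Notch3, a Notch receptor of thymocytes: -0.74, -0.37 and -0.27 against -1.38, -1.32 and -1.56, a difference of 0.96 ± 0.50. The lower one was the receptor Notch1, by -0.19 ± 0.21, with its other probe at 0.41. Dtx1, a Notch target, differed by 0.17 ± 0.34 and the Notch target Nrarp by -0.88 ± 0.73.

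Among the T lineage transcription factors Tcf7 stood far apart, and most others did not. Tcf7, which starts the T cell programme downstream of Notch, measured -0.13, 1.33 and 1.15 in DN3 and -4.91, -4.20 and -3.39 in IgM-negative B cells. All DN3 arrays lay far above, and DN3 7 was the lowest of them. The difference was 4.95 ± 1.05, a 30.9-fold higher mean (adjusted p = 0.954 in limma), and the second Tcf7 probe gave 5.07. Satb1, a chromatin organiser of thymocytes, measured -0.13, 0.14 and 0.57 against -2.49, -1.95 and -3.30 (2.77 ± 1.14). Bcl11b, the T commitment factor that is switched on shortly before this stage, measured -1.07, -1.20 and -1.16 against -2.68, -2.52 and -1.80 (1.19 ± 0.54), and its second probe differed by 3.08. Lef1, the relative of Tcf7, measured 0.15, 0.79 and 0.47 against -1.56, -0.72 and -0.15 (1.28 ± 0.84), again without overlap. Ets1 measured 1.90, 2.55 and 1.75 against 0.00, 0.29 and 2.04 (1.29 ± 0.63), and IgM-negative 18 overlapped with DN3. Gata3, needed throughout T cell development, overlapped: -2.46, -2.70 and -3.39 against -3.45, -2.99 and -2.95 (0.28 ± 0.51). Of the 17 factors, 4 had all DN3 arrays higher and 2 lower, Egr2 among them (by -0.38 ± 0.44), beside 7.21% and 10% of all genes, and the median difference was 0.10. With slide as a block the difference remained at 5.26 for Tcf7 and 2.74 for Satb1 but was -0.79 for Bcl11b.

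Genes of the CD3 complex and of TCR signalling divided. Thy1, the surface glycoprotein of thymocytes, measured 1.62, 2.46 and 2.25 against 1.18, 1.39 and 1.01 (0.92 ± 0.27). Cd3d, a CD3 chain, measured -1.22, -0.06 and -0.74 against -2.42, -2.49 and -2.89 (1.93 ± 0.87). Cd247, the zeta chain, measured -1.80, -1.45 and 0.59 against -2.32, -1.85 and -2.01 (1.17 ± 0.58), and DN3 9 alone carried most of that distance. Its other probe gave -0.02. The kinase Txk stood at -2.39, -3.83 and -2.00 against -5.62, -4.17 and -5.59 (2.39 ± 1.57), and was well above background on 2 of 3 B cell arrays. The remaining chains did not follow. Cd3e, the CD3 epsilon chain, lay below the B cells in all DN3 arrays (0.47, 0.53 and 0.56 against 0.67, 0.75 and 0.82; -0.22 ± 0.13). Cd3g overlapped (0.68 ± 0.36), as did the kinase Lck (-0.12 ± 0.21). Cd4 differed by -0.20 ± 0.15 and Cd8a by -0.01 ± 0.55, for cells sorted as negative for both proteins. Means of Cd4 were 3.63 in SP4, 3.45 in SP8 and 3.73 in IgM-negative cells, and Cd8a had -0.89 in SP4 and -0.90 in SP8. In SP4, SP8 and IgM-positive cells Lck had means of 1.49, 1.63 and 1.77, and Cd3e 0.52, 0.60 and 0.90. Values of these probes thus did not follow the sort labels, and why was not tested. In all, 5 of 20 members had every DN3 array higher and 3 lower, the latter near the 10% of all genes that did and the former beside 7.21%, and the median was 0.09. With slide as a block Cd3d was at -1.94 and Thy1 at 0.46.

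**Figure D1:**
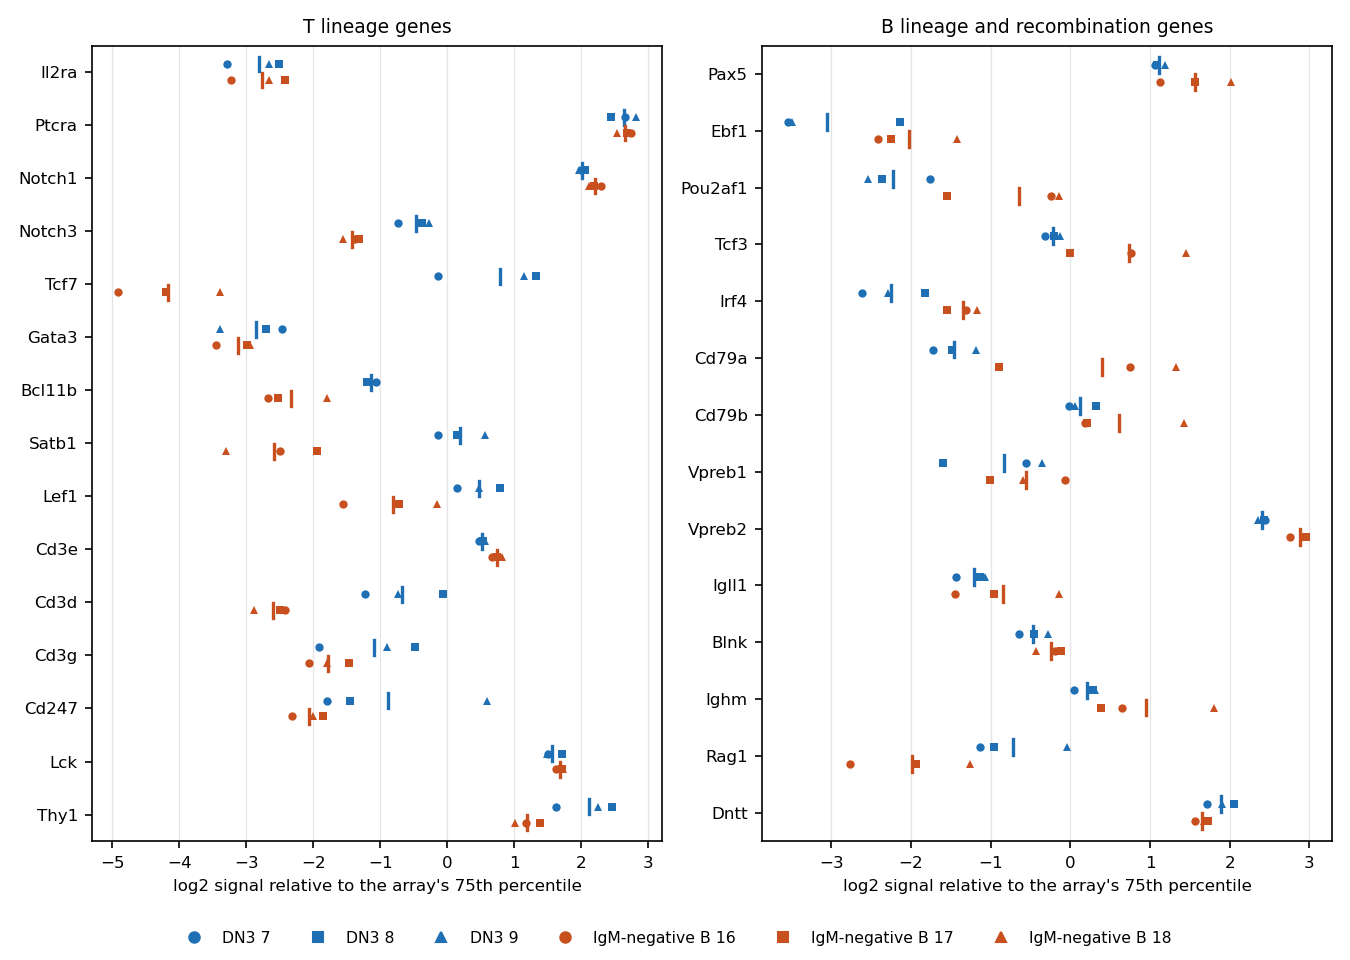
Log2 signal relative to the array's 75th percentile (horizontal axis) of 15 T lineage genes (left) and 14 B lineage and recombination genes (right) in DN3 arrays 7, 8 and 9 (blue) and IgM-negative B arrays 16, 17 and 18 (orange); symbols give the array and vertical bars the group means. Tcf7, Satb1, Bcl11b, Lef1, Cd3d and Thy1 separate the groups, while Il2ra, Ptcra, Lck, Igll1 and Blnk overlap.

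At the TCR loci the beta constant genes stood out. Trbc2 measured 2.02, 3.39 and 3.19 in DN3 and -0.21, -0.01 and -0.42 in B cells, with a wide gap between the groups. The difference was 3.08 ± 0.63, a mean 8.45-fold higher in DN3 (adjusted p = 0.886 in limma). Trbc1 measured 2.67, 3.54 and 3.29 against 1.77, 1.94 and 2.09 (1.23 ± 0.37). These genes are close copies, so their signals may not be independent. The probes shown above share little sequence with each other, but whether each also reads the other gene was not analysed. With slide as a block the differences were 0.58 for Trbc2 and 0.57 for Trbc1. Trac, whose locus rearranges later, measured -3.66, -3.74 and -3.55 in DN3 against -3.69, -3.37 and -2.56 (-0.44 ± 1.16), so the groups overlapped. In DP thymocytes of the Foxn1 +/- thymus it measured -4.94, -2.73 and -2.46, on both sides of the DN3 values. Beta variable segments were mostly level: of 19 measured, Trbv5 had all DN3 arrays higher (-0.66, -1.64 and 0.27 against -2.00, -1.77 and -2.07; 1.27 ± 0.58, other probe 1.44) and Trbv14 all lower (-0.22 ± 0.28). Of 35 alpha variable segments 2 had all DN3 arrays higher and 0 lower, with a median of -0.07. Over all genes 7.21% were higher and 10% lower in this way.

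Of the 5 receptor locus spans, that of the gamma genes had the largest share of genes higher in all DN3 arrays. Within chromosome 13, bases 19270114 to 19444212 (mm9), 4 of 10 genes tested (40%) had all 3 DN3 arrays higher and 0 lower, against 7.21% and 10% of all genes. That locus was singled out after its values were seen. Trgv4, a gamma variable segment, measured -1.53, -1.52 and -2.58 against -4.78, -2.94 and -4.17 (2.09 ± 0.59). Trgv3 measured -0.06, -0.16 and 0.73 against -2.21, -0.83 and -0.77 (1.44 ± 0.98). A transcript the array calls predicted gene 17004, a name that RefSeq lists as a synonym of the gamma constant gene Trgc1, measured 0.52, 1.64 and 1.49 against -0.41, -1.62 and -0.47 (2.05 ± 0.45), and its second probe gave 2.88. Predicted gene 16602, a RefSeq synonym of Trgv1, measured -0.06, -0.14 and 1.01 against -2.89, -1.91 and -1.43 (2.35 ± 0.88); the probe named Trgv1 in the files gave -0.20 ± 0.26. Trgv2, Trgv5, Trgv6 and Trgv7 overlapped, with differences of 0.57, -0.15, -0.40 and -0.01. The probe named Trgc, for a gamma constant gene, overlapped too: -0.19, -0.26 and -0.04 against 0.13, -0.71 and -0.42 (0.17 ± 0.48). In the span of the TCR alpha and delta segments, 7 of 107 genes had all DN3 arrays higher (6.54%). Among them the thymus cDNA A630038E17Rik, which the array describes as holding an immunoglobulin domain and places within chr14:54762764-54763464, had the widest distance: -0.74, -0.61 and -0.02 against -3.87, -3.38 and -4.28 (3.39 ± 0.79). It too was chosen after its value was seen, and its other probe, at another position, gave -0.47.

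Several B lineage transcription factors had lower values in DN3. Pou2af1, the coactivator of octamer factors in B cells, measured -1.76, -2.36 and -2.54 in DN3 against -0.24, -1.55 and -0.14 (-1.58 ± 0.52), with no overlap. Tcf3, which encodes the E2A proteins, measured -0.32, -0.21 and -0.13 against 0.76, 0.00 and 1.45 (-0.96 ± 0.44), but its other probe gave 0.18. The commitment factor Pax5 measured 1.06, 1.09 and 1.19 against 1.12, 1.57 and 2.02 (-0.46 ± 0.20; other probe 0.03), and the groups overlapped through IgM-negative 16. Ebf1 overlapped as well (-3.54, -2.14 and -3.49 against -2.41, -2.25 and -1.42; -1.03 ± 0.71). Irf4 was lower by -0.91 ± 0.67 and Spib by -1.25 ± 1.21, each without overlap. Of the 16 factors, 0 had all DN3 arrays higher and 4 lower, beside 7.21% and 10% of all genes, and the median was -0.32. With slide as a block Pou2af1 was at -3.14 and Tcf3 at 0.13.

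Few genes of the pre-B and B cell receptors separated the groups. Cd79a measured -1.72, -1.48 and -1.19 in DN3 against 0.75, -0.89 and 1.33 (-1.87 ± 0.75) on the chromosome 7 probe. The chromosome 12 probe of the same name gave 0.01, with means of -1.23 in both groups, and only the first probe separated them. Vpreb2, a surrogate light chain gene, measured 2.44, 2.43 and 2.36 against 2.76, 2.96 and 2.92 (-0.46 ± 0.14), and the complement receptor Cr2 differed by as much (-0.46 ± 0.14). Vpreb1 overlapped (-0.28 ± 0.71), as did Igll1 (-1.44, -1.13 and -1.07 against -1.45, -0.96 and -0.14; -0.36 ± 0.53), Vpreb3 (0.22 ± 0.29), Cd79b (-0.49 ± 0.31) and Blnk (-0.22 ± 0.34). For Cd79a, Cd79b, Ebf1 and Pax5, IgM-negative 18 was the highest B cell array. Of 20 members, 0 had all DN3 arrays higher and 4 lower, where 10% of all genes were lower, and the median was -0.16.

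Immunoglobulin genes differed little. Ighm, the IgM heavy chain, measured 0.04, 0.28 and 0.31 in DN3 against 0.65, 0.39 and 1.80 (-0.73 ± 0.49), without overlap. Igkc, the kappa light chain constant gene, overlapped: -1.92, -1.10 and -1.18 against -1.58, -0.50 and 1.06 (-1.06 ± 0.81). Both were highest in IgM-negative 18. Of 24 heavy chain variable segments that carry a segment name in the files, 0 separated the groups in either direction (median 0.11). Over the whole span of the locus 11 of 133 genes had all DN3 arrays higher (8.27%) and 6 lower (4.51%), and 5 of the higher ones bear predicted gene names that RefSeq lists as synonyms of variable segments, with differences of 0.20 to 1.15. Of 45 kappa variable segments named so, 6 had all DN3 arrays higher and 2 lower (median 0.07), beside 7.21% and 10% of all genes.

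The recombination machinery is shared by both lineages. Rag1 measured -1.14, -0.96 and -0.04 in DN3 against -2.76, -1.94 and -1.26 (1.27 ± 0.66), and its second probe gave 1.44. Rag2, its partner, overlapped widely: -1.15, -0.04 and -1.90 against -3.07, -1.86 and 0.18 (0.55 ± 1.49). Dntt, the template-independent polymerase that adds bases at junctions and is largely absent from fetal lymphocytes, measured 1.71, 2.05 and 1.90 against 1.56, 1.73 and 1.68 (0.23 ± 0.15). The end-joining factor Xrcc6 was higher without overlap (0.43 ± 0.34), and the nuclease Dclre1c was lower (-0.43 ± 0.25; its other probes gave -0.41, 0.17 and -0.05), as was Paxx (-0.21 ± 0.19; other probe 0.31). Of 17 members 2 had all DN3 arrays higher and 2 lower, beside 7.21% and 10% of all genes, with a median of 0.10. With slide as a block Rag1 was at -0.70.

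Receptors and regulators that both lineages use were mostly level. Ccr9, the chemokine receptor that draws progenitors into the thymus, measured -0.70, -0.27 and 0.22 against -1.05, -1.20 and -1.44 (0.98 ± 0.41; other probe 0.40). The cytokine receptor Il7r was scattered in both groups and well above background on 2 of 3 arrays in each (-0.34 ± 1.09), and Kit overlapped (0.06 ± 0.41). Of 16 cytokine receptor genes 1 was higher and 1 lower without overlap, beside 7.21% and 10% of all genes. The lower gene was Jak3, by -0.20 ± 0.23, and the median was 0.05. Among E and Id proteins, which counter each other on DNA, Id3 measured -1.03, -0.77 and -1.13 against -0.43, -0.69 and -0.47 (-0.45 ± 0.19). Of 14 progenitor transcription factors 1 separated the groups, Lyl1 by -0.61 ± 0.64, where 17.3% of all genes did so. Of 12 genes of fetal haematopoiesis and imprinting 1 did, the imprinted RNA H19: 1.10, 1.40 and 1.88 in DN3 against 0.97, 0.80 and 0.60 in the fetal liver cells (0.67 ± 0.35). The 6 other H19 probes gave -0.14 to 2.69, and slide as a block gave -0.12. Fetal Hmga2 overlapped (-0.66 ± 0.37; other probe 0.49). MHC class II genes had 3 of 10 members lower without overlap and 0 higher, beside 10% and 7.21% of all genes. H2-Oa was at -1.05 ± 0.49, H2-Ab1 at -0.38 ± 0.24 and H2-Ob at -0.41 ± 0.38, and the median was -0.17.

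Proliferation genes gave no direction common to replication and mitosis. Mcm2, a subunit of the replicative helicase, measured -3.97, -2.67 and -2.31 against -5.17, -6.03 and -7.45 (3.23 ± 1.08), but was well above background on 1 of 3 B cell arrays. Cdc6, which loads that helicase, was higher by 0.92 ± 0.41 with its other probe at -0.94, and the primase Prim1 lower by -1.07 ± 0.54. Slide as a block gave -0.73 for Mcm2 and -0.90 for Cdc6. The 19 replication genes had a median of 0.29, and 14 had higher means in DN3, beside 15838 of the 33536 genes tested. Of them 2 had all DN3 arrays higher and 1 lower. The 19 mitotic genes had a median of -0.22, and 12 had lower means in DN3, beside 17698 of all genes. Plk1, Bub1b and Kif11 had all DN3 arrays lower (-0.29 ± 0.14, -0.72 ± 0.50 and -0.36 ± 0.27), and 0 had all higher. In the Bcl2 family the pro-apoptotic genes Bad (-0.24 ± 0.13) and Bax (-0.32 ± 0.20) were lower without overlap and the survival gene Mcl1 overlapped (1.15 ± 0.61; other probe 0.10). Of 13 adhesion and homing genes Cxcr5 alone was higher without overlap (0.77 ± 0.94). Beside these counts, 7.21% of all genes were higher and 10% lower without overlap.

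Cytosolic ribosomal protein genes mostly had higher means in DN3. Of 30 measured, 25 did, beside 15838 of the 33536 genes tested, and 7 had all DN3 arrays higher and 0 lower, beside 7.21% and 10% of all genes. The median was 0.41 against -0.02 over all genes, 0.25 without DN3 8 and 0.28 with the mean of all probes of a gene. Rplp0, of the ribosomal stalk, measured -0.68, -0.13 and -0.79 against -1.28, -1.36 and -1.75 (0.93 ± 0.37), and its other probes gave 0.97 and 1.33. Rps4x measured 0.48, 0.41 and 0.44 against -0.62, -0.29 and 0.07 (0.72 ± 0.29). Rps6 (0.53 ± 0.40), Rps9 (0.50 ± 0.34), Rpl13a (0.60 ± 0.33), Rpsa (0.30 ± 0.27) and Rpl3 (0.40 ± 0.65) were the other genes without overlap, and Rps7 (0.83 ± 0.42) and Rpl11 (0.65 ± 0.33) overlapped. The list's mean level ran from 1.26 to 1.57 on the DN3 arrays and from 0.96 to 1.19 on the B cell arrays. Ribosomal protein genes have many processed copies in the genome that such probes may also read. In the slide 1 pair 22 of 30 were higher in SP4 11 than in IgM-positive 19 (median 0.43), and with slide as a block the median was 0.17.

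**Figure D2:**
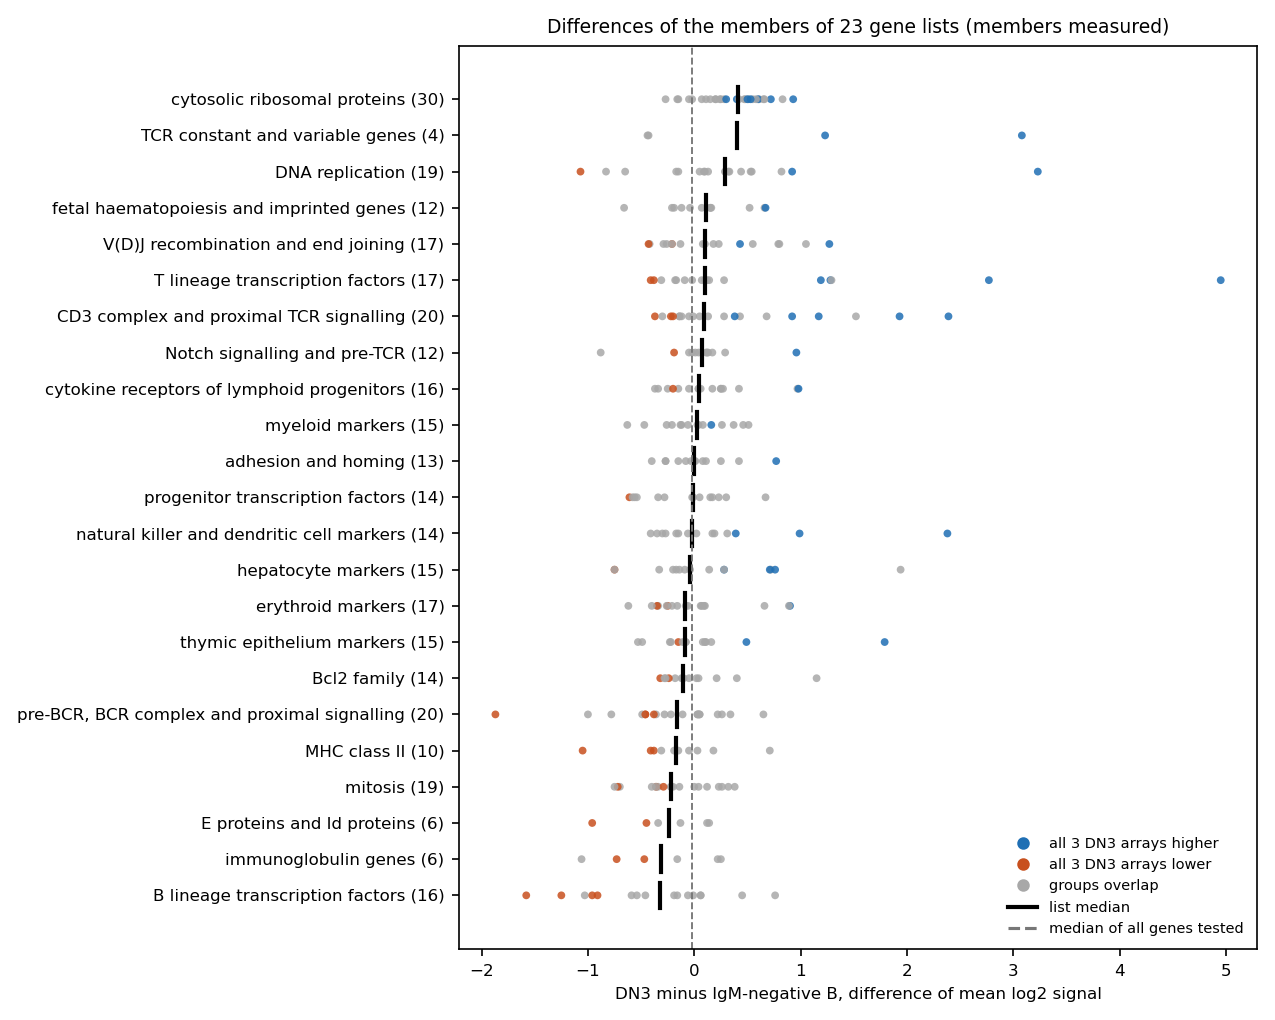
Differences of mean log2 signal, DN3 minus IgM-negative B (horizontal axis), of the members of 23 gene lists (rows, members measured in brackets, ordered by median). Blue and orange points are genes whose 3 DN3 arrays lie all above or all below the 3 B cell arrays, grey points overlap, black bars are list medians and the dashed line the median of all genes, -0.02; the ribosomal list has the highest median (0.41) and the B lineage factors the lowest (-0.32).

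Markers of other cells were compared because a thymic and a liver sort could carry different neighbours. Their medians ranged from -0.08 to 0.03. All DN3 arrays were higher for 1 and lower for 2 of 17 erythroid markers, and for 3 and 1 of 15 hepatocyte markers. The counts were 1 and 0 of 15 for myeloid and 3 and 0 of 14 for natural killer and dendritic cell markers. For thymic epithelium they were 2 and 1 of 15, beside 7.21% and 10% of all genes. Erythroid markers had a mean level of -1.97 to -1.51 on DN3 and -1.87 to -1.60 on B cell arrays, with 16 of 17 well above background on all 6 arrays; the globin Hba-a1 measured 0.29, 0.21 and 0.50 against 0.61, 0.59 and 0.57 (-0.25 ± 0.26). Hepatocyte markers lay at -1.63 to -1.42 against -2.07 to -1.32, with 14 of 15 so detected. Albumin, Alb, overlapped, at -2.86, -1.38 and -2.96 in DN3 against -2.61, -3.49 and -6.93 (1.94 ± 2.08). The apolipoprotein Apob lay lower in DN3, at -1.37, -1.71 and -1.59 against -0.69, -0.79 and -0.95 (-0.75 ± 0.22). Myeloid markers lay at -0.02 to 0.08 against -0.06 to 0.14 (14 of 15 detected) and natural killer and dendritic cell markers at -0.86 to -0.54 against -1.09 to -0.67 (11 of 14), where Klrd1 was not well above background on any B cell array and at least 2.59-fold higher in DN3. Thymic epithelium markers lay at -0.95 to -0.63 against -0.86 to -0.81 (13 of 15). Prss16, a peptidase of cortical epithelium, measured -3.03, -4.28 and -1.05 in DN3 against -4.32, -4.48 and -4.92 (1.79 ± 0.94), and the keratin Krt18 was higher by 0.49 ± 0.28. Foxn1 overlapped (0.11 ± 0.25), as did the epithelial chemokine Ccl25 (-0.08 ± 0.14) and the proteasome gene Psmb11 (-0.53 ± 0.46). The part of these cells in the results was not tested.

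The genes of smallest p with non-overlapping groups were then listed, 12 in each direction. On the higher side stood Trbc2, Tcf7, Trbc1, Thy1 and Trgv4, described above, and 7 genes not on any T cell list. Myl10, a myosin light chain, measured -1.52, 0.60 and 0.25 against -2.12, -2.49 and -2.65 (2.20 ± 0.50). Neat1, the RNA that builds paraspeckles in the nucleus, measured 0.67, 1.21 and 1.35 against -0.99, -0.63 and -0.27 (1.71 ± 0.44). Fam169b was not well above background on any B cell array and was at least 7.32-fold higher in DN3 (means -2.74 and -7.92; adjusted p = 1.0 in limma), although its DN3 values were far apart, at -3.23, -4.78 and -0.21. Such a bound sets the DN3 mean against a floor on each B cell array, namely the lowest signal there that was well above background, or the probe's reading where that was brighter. Nampt, which makes a precursor of NAD, measured -0.05, 0.24 and 0.60 against -0.59, -0.96 and -0.50 (0.94 ± 0.25). The chemotactic factor Lect2 (1.63 ± 0.50), the dynein light chain Dynlt1f (1.13 ± 0.36) and the ribosomal protein Rpl21 (0.65 ± 0.19) completed the list. The other Rpl21 probes gave -0.71 and 0.31.

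Genes on the lower side differed by less but with tighter groups. Fbxo17, an F-box protein of ubiquitin ligases, had the smallest p of all genes and measured -0.40, -0.45 and -0.60 against 0.44, 0.60 and 0.42 (-0.97 ± 0.17, adjusted p = 0.758 in limma); its other probe gave -0.01. Ankrd12 measured 1.01, 0.97 and 0.77 against 1.50, 1.74 and 1.67 (-0.72 ± 0.16; other probe -0.09). Calr, the chaperone calreticulin of the endoplasmic reticulum, measured -1.26, -0.83 and -1.01 against -0.39, -0.34 and -0.32 (-0.68 ± 0.17), and the lysosomal galactosidase Gla 3.51, 3.36 and 3.32 against 3.93, 4.18 and 4.06 (-0.66 ± 0.17). Srrm4os (-0.97 ± 0.22), Fam110a (-0.60 ± 0.15; other probe -0.29), Enox1 (-0.63 ± 0.17) and Tex101 (-0.53 ± 0.14) were alike in size. A further 3 were not well above background on any DN3 array and were at least 1.72-fold (Mfsd9, means -7.36 and -4.59, adjusted p = 0.886 in limma), 2.81-fold (Ddx39a, -7.19 and -3.88, adjusted p = 1.0 in limma) and 2.11-fold (Hsd3b1, -5.61 and -4.24, adjusted p = 1.0 in limma) lower there. None of the 12 is a member of the 23 gene lists used here.

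**Figure D3:**
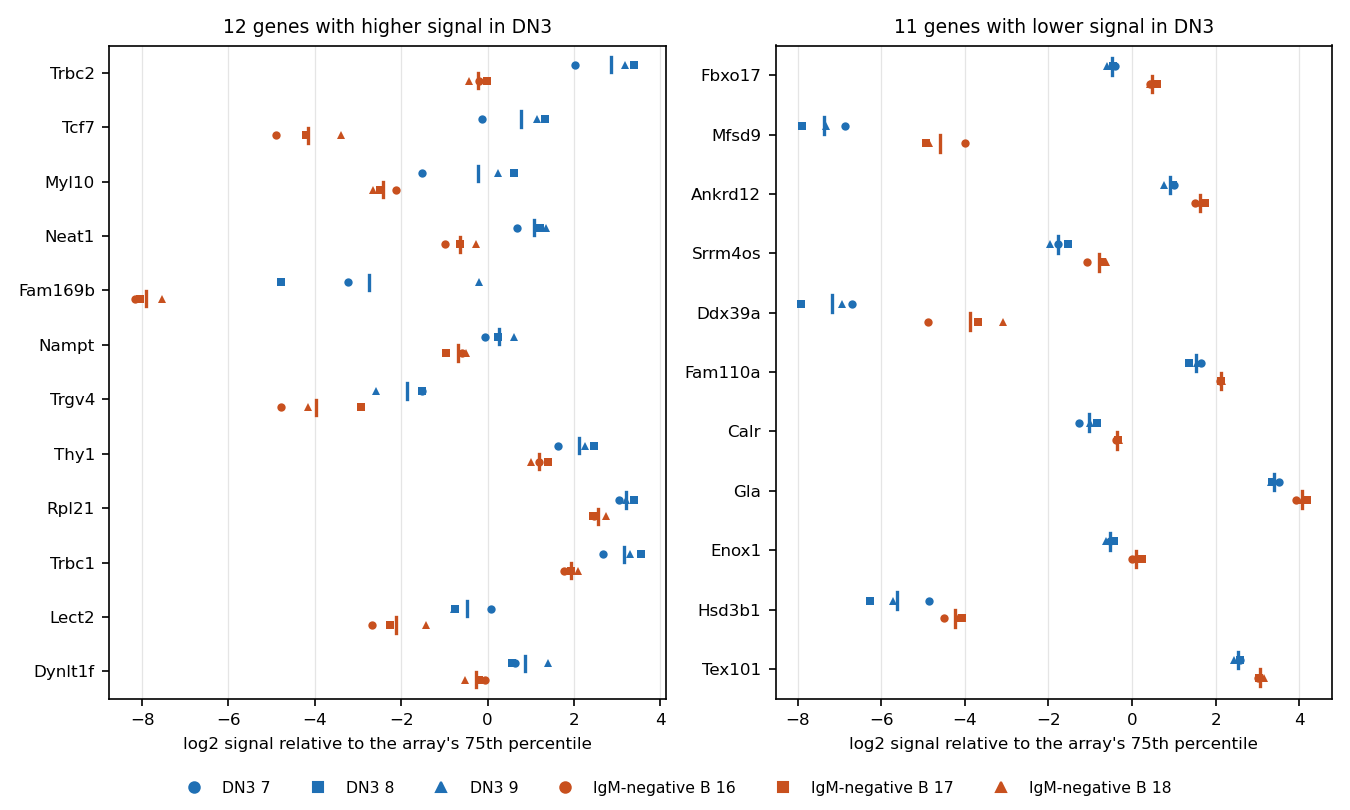
Log2 signal relative to the array's 75th percentile (horizontal axis) of the 12 genes with higher (left) and 11 of the 12 with lower (right) signal in DN3 that had the smallest p among genes whose groups do not overlap; blue symbols are DN3 arrays, orange symbols IgM-negative B arrays and bars the group means. Tcf7 (4.95) and Trbc2 (3.08) are far apart, Fam169b is not well above background in B cells and has only a bound, and most genes on the right differ by under 1.

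The later stage of each lineage allowed the same contrast in SP4 and SP8 thymocytes against IgM-positive B cells. Means of these groups had no part in the first comparison, but their spread entered the SE and p that picked the 12 genes in each direction. Counts of those genes at an unadjusted p are therefore not independent of that choice. There 100 of 33536 genes passed in limma (0.298%), 86 higher in SP cells (0.256%) and 14 lower (0.0417%). The count was 4 without IgM-positive 21, 340 without IgM-positive 20 and 1 with array weights. At an unadjusted p under 0.05, 9.89% of all genes were higher and 4.25% lower, and all 6 SP arrays lay above the 3 IgM-positive arrays for 3.57% and below them for 1.79%. Of the 12 genes higher in DN3, 11 were also higher in SP cells, 7 of them at an unadjusted p under 0.05. Of the 12 genes lower in DN3, 10 were lower in SP cells, 8 at an unadjusted p under 0.05, and 1, Ddx39a, had a higher value, which shows no direction since it was well above background on 2 SP4 arrays, 0 SP8 arrays and 0 IgM-positive arrays. For all genes with 3 DN3 arrays higher the share with the same direction was 77.7%, and it was 64.9% for those lower. The slides run in parallel in both contrasts, however, since 5 of 6 SP arrays lay on slide 3 with DN3 8 and 9 and 2 of 3 IgM-positive arrays on slide 4 with all IgM-negative ones. Within slide 1, where SP4 11 and IgM-positive 19 sat side by side, 9 of the 12 higher and 9 of the 12 lower genes kept their direction, against 50.8% of all genes tested. That pair is 1 array against 1. Counted among these genes were Thy1 (0.01), Gla (-0.04) and Enox1 (0), which were nearly level. Also counted were Ddx39a, well above background on neither array, and Hsd3b1, not so on SP4 11.

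Tcf7 and Trbc2 passed at the later stage. Tcf7 measured 1.74, -0.49 and 1.31 in SP4, -0.86, -3.27 and -2.85 in SP8 and -7.40, -4.49 and -3.86 in IgM-positive B cells (4.52 ± 0.91, adjusted p = 0.0444 in limma), and IgM-positive 19 was not well above background. Trbc2 measured 3.32, 2.04 and 2.77 in SP4, 2.14, 1.08 and 1.75 in SP8 and -0.05, -0.32 and -1.16 in IgM-positive cells (2.69 ± 0.55, adjusted p = 0.0476 in limma). On slide 1 the pair differed by 2.09 for Trbc2 and by at least 4.66 for Tcf7, but with slide as a fixed block over all arrays the later difference was 0.62 for Trbc2 and 4.14 for Tcf7. Of 27 alternative settings Tcf7 passed in 7, with adjusted p from 0.0199 to 0.314 in limma, and Trbc2 in 8, from 0.0276 to 0.906, and without IgM-positive 21 their adjusted p was 0.127 and 0.211. The difference between stages was 0.43 ± 1.38 for Tcf7 and 0.39 ± 0.84 for Trbc2.

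Other genes gave unlike values at the 2 stages, although 0 of 33536 genes (0%) passed the test of that difference in limma (smallest adjusted p = 0.167; 1508 genes, 4.5%, at an unadjusted p under 0.05, with 0.951% in the positive and 3.55% in the negative direction). Trac was level between DN3 and IgM-negative cells but measured -1.13, 0.01 and -1.26 in SP4 and -1.10, -1.33 and -2.19 in SP8, against -7.25, -5.70 and -7.44 in IgM-positive cells, where it was not well above background on any array. It was at least 20.5-fold higher in SP cells (means -1.17 and -6.80; adjusted p = 0.0277 in limma). The fitted stage difference of -6.07 ± 1.54 had an adjusted p of 0.939 in limma. The B cell groups themselves had unlike means for Trac, -3.21 in IgM-negative and -6.80 in IgM-positive cells. Igkc measured -2.66, -1.20 and -2.77 in SP4, -1.45, -1.93 and -1.94 in SP8 and 0.40, 1.99 and 3.37 in IgM-positive cells (-3.91 ± 0.70, adjusted p = 0.0277 in limma), against -1.06 ± 0.81 at the earlier stage. Gata3 was higher in SP cells by 2.24 ± 0.44 (adjusted p = 0.0399 in limma), against 0.28 ± 0.51. Trac passed in 20, Igkc in 18 and Gata3 in 10 of 27 alternatives, and none of the 3 passed without IgM-positive 21. Their adjusted p reached 0.376, 0.740 and 0.432 in limma.

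Genes with a lineage difference at the DN3 stage and little at the later one included Myl10, at 2.20 ± 0.50 and 0.01 ± 0.44, Trgv4, at 2.09 ± 0.59 and -0.18 ± 0.51, predicted gene 17004, at 2.05 ± 0.45 and 0.19 ± 0.39, and Rag1, at 1.27 ± 0.66 and 0.00 ± 0.57. Predicted gene 16602 measured 2.35 ± 0.88 and -1.55 ± 0.76, Trgv3 1.44 ± 0.98 and -1.30 ± 0.85. None of these stage differences passed in limma (adjusted p = 0.998 for Myl10 and 1.0 for Trgv4). Leaving out the transgenic thymus, Rag1 was highest in DN3 (-0.71 ± 0.59, SD, n = 3), followed by IgM-negative cells (-1.98 ± 0.75, n = 3) and DP thymocytes (-2.12 ± 0.35, n = 3), which overlapped. SP8 (-2.88 ± 0.63, n = 3), IgM-positive (-3.31 ± 0.33, n = 3) and SP4 cells (-3.73 ± 0.87, n = 3) came next. DP cells of the transgenic thymus had a Rag1 mean of -1.43 and ranged from -3.42 to 0.07. Mfsd9 was well above background on 1 SP4, 0 SP8 and 2 IgM-positive arrays, so its later value rests mostly on undetected signal.

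**Figure D4:**
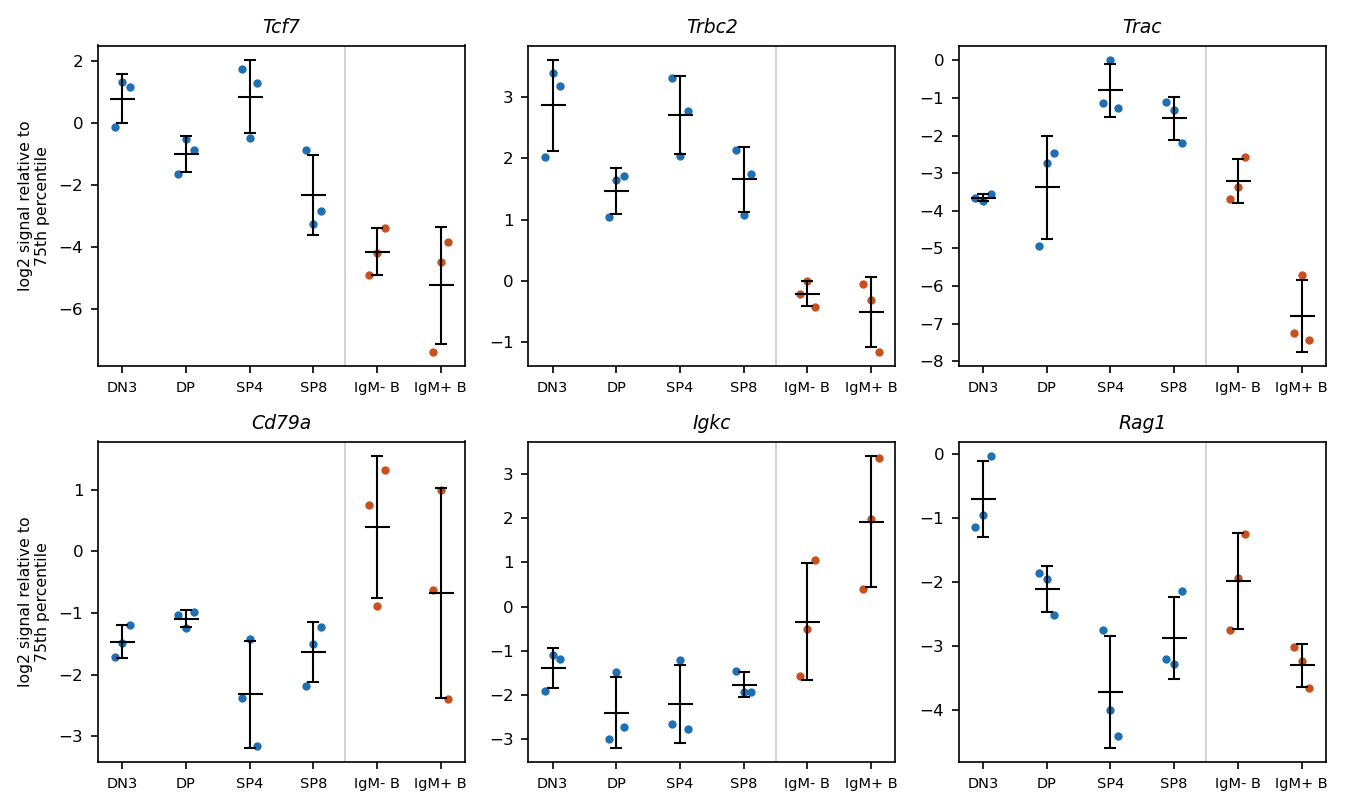
Log2 signal relative to the array's 75th percentile (vertical axes) of 6 genes in DN3, DP, SP4 and SP8 thymocytes of the Foxn1 +/- thymus (blue) and IgM-negative and IgM-positive fetal liver B cells (orange); points are arrays, n = 3 a group, and bars the mean ± SD. Tcf7 and Trbc2 lie higher in DN3 than in either B cell group, Trac is at one level in DN3 and IgM-negative cells and far apart between SP and IgM-positive cells, and Igkc is highest in IgM-positive cells.

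**Figure D5:**
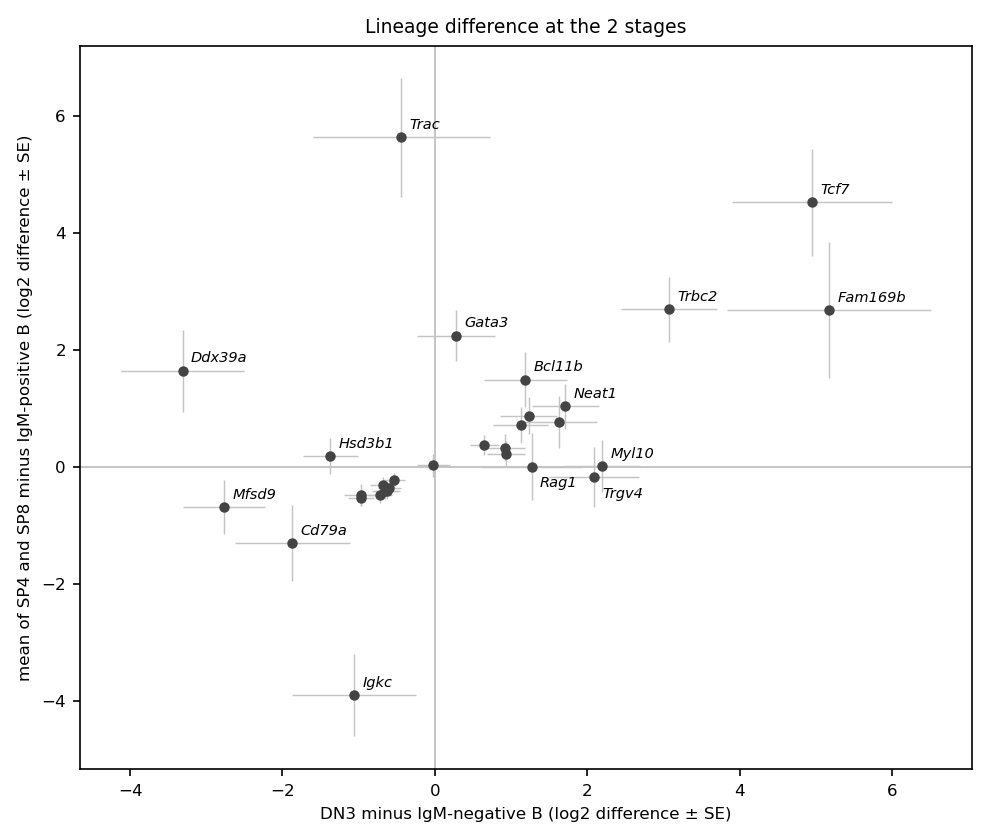
Difference between lineages at the earlier stage (DN3 minus IgM-negative B, horizontal axis) and at the later stage (mean of SP4 and SP8 minus IgM-positive B, vertical axis) for 23 of the 24 genes of smallest p and 7 further genes, as log2 differences with SE bars from limma; values of Tcf7, Trgv4, Fam169b, Mfsd9, Ddx39a, Hsd3b1 and Trac rest in part on arrays not well above background. Tcf7 and Trbc2 lie at like values on both axes, Trac (-0.44 and 5.63) and Gata3 (0.28 and 2.24) near 0 on the first, and Myl10 and Trgv4 near 0 on the second.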

How the data were processed

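Gene expression was read on 24 Agilent one-colour (Cy3) arrays with 62976 spots each, of cDNA amplified from few sorted cells. The intensity values used are the processed signals of the deposited scanner files, background-subtracted by the scanner software per the file headers. Control spots (3671) were left out, outlier spots (3099 values) set missing, and spots of a probe averaged, which left 55681 probes. Probes were named through RefSeq by accession (26762), symbol (3819), synonym (639) or description (146), and otherwise kept the name in the file (24315). Each log2 intensity was centred on its array's 75th percentile. The brightest probe stood for a gene, and a gene was tested if 1 or more groups had any of its probes well above background throughout. limma 3.58.1 in R 4.3.3 was fitted to all 24 arrays in 8 groups, with Benjamini-Hochberg adjustment over 33536 genes and a threshold of 0.05, and was checked on simulated data. The deposited log2 values of the authors' table, with centring and scaling steps unknown here (array medians 7.93), served as an alternative. Other alternatives changed the scaling, background correction, filter, probe rule, arrays, slide term, array weights and eBayes settings.

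The genes named were a panel of 35, the 12 higher and 12 lower genes of smallest p with non-overlapping groups, a gene symbol and signal above background in the higher group, and up to 4 members of each list with the largest moderated t. Other list members and receptor locus genes were named after their values were seen. The members and lists were chosen with earlier results of these data known. The number of arrays limits the precision. A few of these genes are counted but not reported singly here.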

Additional observations from a re-analysis of the deposited data

How the results depend on the processing

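DN3 and IgM-negative arrays share no slide, so slide as a fixed block reads their difference only through other groups. No gene passed between DN3 and IgM-negative B cells except with slide as a fixed block (13 genes) and with array weights (65 genes). The later comparison had 100 calls, against 57 with median scaling, 20 with quantile scaling, 20 with the deposited log2 table, 64 without the 3 arrays that stood apart, 24 and 29 with slide as a fixed and a random block, 1 with array weights and 152 with trend and robust eBayes. Leaving out 1 array gave 4 (IgM-positive 21) to 340 (IgM-positive 20). The stage difference had 1 call without those 3 arrays, 1 with slide as a fixed block and 1 with array weights, and 0 to 4 with 1 array left out. The causes were not tested. List medians moved as follows: myeloid to -0.05 with quantile scaling and the deposited table, thymic epithelium to 0.05 with normexp, and with the mean of all probes CD3 and TCR signalling to 0.31, ribosomal proteins to 0.28, hepatocyte to 0.14, myeloid to -0.06, natural killer and dendritic cells to 0.17, T factors to 0.28 and thymic epithelium to -0.15. With 1 of the 6 arrays left out they ranged from -0.20 to 0.02 for the Bcl2 family, 0.00 to 0.22 for CD3 and TCR signalling, -0.31 to 0.06 for MHC class II, -0.13 to 0.12 for Notch and pre-TCR, -0.03 to 0.11 for T factors, -0.02 to 0.24 for recombination, -0.10 to 0.12 for adhesion, 0.02 to 0.13 for cytokine receptors, 0.25 to 0.49 for ribosomal proteins, -0.20 to 0.02 for erythroid, -0.15 to 0.27 for fetal and imprinted, -0.07 to 0.30 for hepatocyte, -0.05 to 0.04 for myeloid, -0.06 to 0.17 for natural killer and dendritic cell, -0.31 to -0.07 for pre-B and B cell receptor, -0.21 to 0.11 for progenitor and -0.12 to 0.02 for thymic epithelium genes. No paired analysis was possible because the groups compared share no replicate number.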
